A study of Mus musculus with 12 samples.

Results

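Integrins, laminins and nidogens were taken as every row of the deposited expression table whose symbol is Itga, Itgb, Lama, Lamb, Lamc or Nid followed by a number. Of the 25676 genes in the table, 37 met this rule: 12 integrin alpha subunits, 9 integrin beta subunits, 11 laminin chains, 2 nidogens and 3 proteins that bind integrin beta tails or share such a name (Itgb1bp1, Itgb1bp2 and Itgb3bp) but are no integrins. All 37 were above 0 in at least 1 library. Integrin alpha genes named with a letter, such as Itgav, lie outside the rule and are given further on. Bulk RNA sequencing was run on whole livers of 12 mice on a C57BL/6 background, 3 to 4 months old by the title of the series, 1 library for each mouse. The 6 knockout mice (KO) carried Foxa3-Cre and had lost Yap1, the transcriptional co-activator at the end of the Hippo pathway. The other 6 mice were wild type (WT), and each genotype had 3 males and 3 females. Foxa3-Cre acts in the embryonic endoderm, so recombination reaches the cells that later form hepatocytes and bile ducts, while stromal cells and leukocytes of the liver come from other lineages. The labels do not say whether WT mice carried Cre or floxed alleles, and they name no littermates.

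Laminins are trimers of 1 alpha, 1 beta and 1 gamma chain that polymerise into the sheet of a basement membrane, the thin matrix under epithelia and around vessels and muscle. Nidogens bind the laminin gamma chain and join that sheet to the network of type IV collagen. Integrins are pairs of an alpha and a beta subunit that span the cell membrane, bind these and other ligands outside the cell and link to actin inside it. The hepatic sinusoid has no continuous basement membrane under its endothelium, whereas bile ducts and larger vessels rest on one.

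Levels are given as rescaled TPM, which is the deposited TPM (transcript abundance per length, scaled to a fixed sum in each library) divided by 1 factor for each library that brings the typical gene to the same level in all 12. These factors ran from 0.716 to 0.938 in WT and from 1.07 to 1.33 in KO. On deposited TPM the median gene stood 0.35 higher in KO on the log2 scale, against -0.04 after rescaling. Values on deposited TPM are therefore given for most named genes and counts that change with this choice. Differences are on the log2(rescaled TPM + 1) scale, which understates the change of low genes, and p-values are from limma, adjusted by the Benjamini-Hochberg method over 12278 genes of mean TPM 0.5 or more. Of the 37 genes, 26 passed that filter, and for the 11 low ones the values come from a fit without the filter over 17332 genes. Yap1 was at 25.0 to 48.8 rescaled TPM in WT and at 0.872 to 2.45 in KO, and the summed Y-linked genes separated the labelled males (67.6 to 94.5) from the labelled females (0 to 0.133). Nothing in the labels ties the replicates to separate litters or days. The library code of WT male replicate 2 lies apart from the run of codes of the other libraries, and the labels do not say why. That library had the lowest factor, 0.716. The p-values rest on the spread between these 12 mice.

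Of the 26 genes tested, 13 rose in KO livers and 2 fell, over all 12 libraries with sex in the model. Among all genes tested, 20.9% rose and 18.7% fell. The filter took the mean of all 12 libraries, so a gene could pass it through 1 genotype. The 2 that fell passed through WT: Lama1 averaged 0.696 deposited TPM in WT and 0.426 in KO, and Itga10 averaged 0.641 and 0.389. Lama5 passed through KO, with 0.494 in WT and 9.26 in KO. The median difference of the 26 genes was 0.48, beside -0.04 over all genes tested. Without the filter, 15 of the 37 rose and 4 fell, where the whole table gave 16.4% and 12.9%, and the medians were 0.22 and -0.00. On deposited TPM 20 of the 26 rose and 0 fell, and 50.1% of all genes tested rose on that scale. Without the filter on deposited TPM, 23 of the 37 rose and 2 fell, and the medians were 0.42 and, over all genes, 0.21. The 6 KO values lay wholly above the 6 WT values for 8 of the 37 genes, namely Nid1, Lama5, Lamc1, Itgb2, Itga3, Itga2, Itga5 and Itgb5, and wholly below them for Lamc3 alone. The same separation was met by 8.52% of the genes above 0 in the upward direction and by 5.97% in the downward direction. On deposited TPM 13 of the 37 genes lay wholly above and 1 wholly below.

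**Figure D1:**
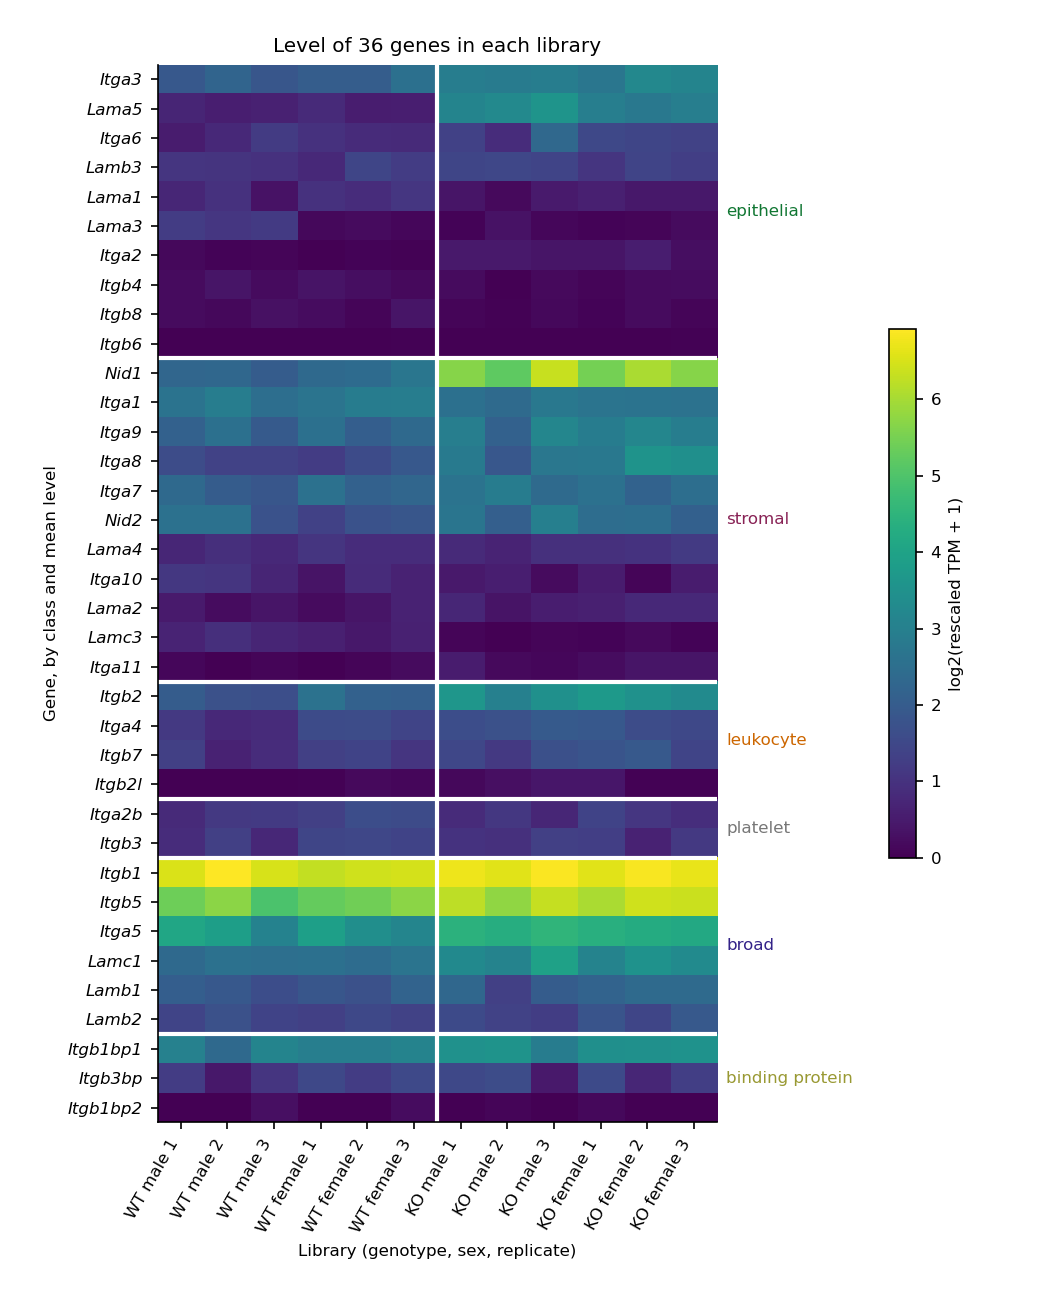
Colour gives the log2(rescaled TPM + 1) level of 36 of the genes (vertical axis, grouped by the cell class assigned to them) in each of the 12 libraries (horizontal axis, WT on the left and KO on the right of the white line). Itgb1 and Itgb5 are the brightest in both genotypes, and Nid1 and Lama5 change most between the genotypes, from 4.16 to 53.8 and from 0.576 to 7.79 rescaled TPM.

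Nidogen 1, the linker between laminin and type IV collagen, showed the largest log2(rescaled TPM + 1) difference of the 37 genes. Nid1 was at 3.86, 3.98 and 3.02 rescaled TPM in the WT males and at 4.13, 4.39 and 5.61 in the WT females. It stood at 50.1, 35.7 and 79.7 in the KO males and at 43.8, 64.5 and 49.2 in the KO females. Every KO library was above every WT library, and the KO males covered the widest range of any group. The means were 4.16 ± 0.847 (SD, n = 6) in WT and 53.8 ± 15.8 (SD, n = 6) in KO, a ratio of 12.9. The log2 difference was 3.38 ± 0.18 (SE, limma adjusted p = 1.53e-08). Males alone gave 3.54 and females 3.22. In the order of the 37 genes by level, Nid1 stood behind Itgb1 and Itgb5 in KO.

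Nid2, the second nidogen, had 5.02, 4.94 and 2.33 rescaled TPM in the WT males and 1.51, 2.32 and 2.61 in the WT females. Its KO values were 5.50, 3.25 and 6.94 in the males and 4.57, 4.65 and 3.35 in the females, so the genotypes overlapped. The difference of 0.51 missed the threshold after rescaling (limma adjusted p = 0.0547; 0.0121 to 0.0345 without WT male replicate 1, WT male replicate 2 or KO male replicate 2) and passed it on deposited TPM, at 0.88 (limma adjusted p = 0.00211). Nid1 made up 48.2% ± 7.15 of the nidogen transcripts in the WT males, 68.9% ± 3.98 in the WT females (SD, n = 3 each) and 91.9% ± 1.41 in KO (SD, n = 6). Such a share does not depend on the scaling of a library.

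Lama5, the main alpha chain of mature epithelial and vascular basement membranes, had the next largest difference on that scale and the largest ratio of means. Its WT values were 0.652, 0.499 and 0.562 rescaled TPM in males and 0.779, 0.477 and 0.489 in females. In KO they were 7.71, 8.63 and 11.1 in males and 6.73, 5.84 and 6.75 in females. No KO library came near the WT range, and the 3 KO males were above the 3 KO females. The mean went from 0.576 ± 0.119 to 7.79 ± 1.86 (SD, n = 6 each), a ratio of 13.5. The log2 difference was 2.46 ± 0.12 (SE, limma adjusted p = 8.56e-09). The male difference was 2.68 and the female one 2.24, and the interaction term between them did not pass (0.44, limma adjusted p = 0.705).

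Since Nid1 and Lama5 moved furthest, the sequences just before their start sites are shown, each the 250 bases upstream of the RefSeq start on build GRCm38.p6, read 5′ to 3′ on the gene's own strand. The Nid1 window is chr13:13437352-13437601 on the + strand, and the gene itself spans chr13:13437551-13512269 in GENCODE, a release whose start for the gene differs from that of RefSeq. The Lama5 window is chr2:180225860-180226109 on the - strand, next to the gene at chr2:180176373-180225859. Capitals mark GGAATG, the core motif of TEAD factors, through which YAP1 is known to reach DNA.
Nid1: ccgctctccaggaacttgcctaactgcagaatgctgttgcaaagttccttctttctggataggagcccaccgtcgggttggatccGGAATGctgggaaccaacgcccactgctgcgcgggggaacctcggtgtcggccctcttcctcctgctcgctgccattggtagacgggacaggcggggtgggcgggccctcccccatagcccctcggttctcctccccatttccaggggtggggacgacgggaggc
Lama5: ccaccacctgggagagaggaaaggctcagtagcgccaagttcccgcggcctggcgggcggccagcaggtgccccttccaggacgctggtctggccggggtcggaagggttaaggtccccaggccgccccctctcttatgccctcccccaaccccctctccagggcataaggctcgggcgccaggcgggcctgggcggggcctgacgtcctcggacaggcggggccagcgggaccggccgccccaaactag

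The single match in the Nid1 window lies 165 to 160 bases before the start, and the Lama5 window holds none on either strand. Windows were at hand for 24 of the 37 genes (27 windows), and GGAATG, searched on both strands, was in those of 4 genes: Nid1, Itga10, Itgb1 and Lamb3. Of all 32851 windows of that length, 12.6% hold the motif. Of these 4 genes, Nid1 rose, Itga10 fell, and Itgb1 and Lamb3 did not pass the threshold after rescaling. TGANTCA, the motif of AP-1 factors, was in 0 of the members' windows and in 6.75% of all. A match is a run of letters and not a measured binding site, and these letters say nothing of sites outside the windows.

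Lamc1, the gamma chain shared by most laminins and the chain that nidogens bind, rose as well. Its values were 4.13, 4.99 and 4.71 rescaled TPM in the WT males and 4.88, 4.50 and 5.30 in the WT females, against 8.73, 7.55 and 14.7 in the KO males and 7.62, 10.5 and 8.93 in the KO females. The genotypes did not overlap, and 1 KO male stood above the other 5 KO mice. The log2 difference was 0.86 ± 0.14 (SE, limma adjusted p = 0.000374).

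The 3 beta chains stayed closer to their WT levels. Lamb1, made by most cells, averaged 2.76 ± 0.561 in WT and 3.46 ± 1.08 rescaled TPM in KO (SD, n = 6 each). Lamb2, the beta chain of vessel and muscle laminins, averaged 1.74 ± 0.291 and 1.99 ± 0.558, and Lamb3, the beta chain of the laminin that anchors epithelia, averaged 1.16 ± 0.348 and 1.57 ± 0.265. The log2 differences were 0.21, 0.11 and 0.26, with limma adjusted p of 0.345, 0.514 and 0.116. On deposited TPM all 3 passed the threshold, at 0.56, 0.41 and 0.52. After rescaling Lamb1 passed without KO male replicate 2 (0.36) and Lamb3 without WT female replicate 2 (0.34). The summed beta chains went from 5.66 ± 0.724 to 7.03 ± 1.34 rescaled TPM and the alpha chains from 3.25 ± 0.438 to 9.76 ± 1.70 (SD, n = 6 each).

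The make-up of the alpha chains differed between the genotypes. Lama5 held 17.9% ± 3.96 of the alpha chain TPM in WT and 79.1% ± 6.19 in KO (SD, n = 6 each), and the lowest KO share of 72.5% was above the highest WT share of 25.0%. Lama3 held 35.5% ± 4.60 in the WT males, 3.89% ± 1.63 in the WT females (SD, n = 3 each) and 1.20% ± 0.855 in KO (SD, n = 6). Lama1, the embryonic alpha chain, held 17.6% ± 8.90 in the WT males, 33.0% ± 2.66 in the WT females (SD, n = 3 each) and 3.75% ± 1.56 in KO (SD, n = 6). Lama4, an alpha chain of endothelium and mesenchyme, went from 22.1% ± 3.29 in the WT males and 31.5% ± 4.20 in the WT females (SD, n = 3 each) to 9.74% ± 3.02 in KO (SD, n = 6). Lama2, the chain of muscle and stellate cells, went from 10.2% ± 5.13 in WT to 6.17% ± 2.53 in KO (SD, n = 6 each). Shares of a chain type have a fixed sum, so a share can fall while the level of that chain does not. The level of Lama2 averaged 0.326 ± 0.159 rescaled TPM in WT and 0.577 ± 0.183 in KO (SD, n = 6 each). Among the beta chains, Lamb1 held 48.7% ± 6.60 in WT and 48.1% ± 8.89 in KO (SD, n = 6 each), with the lowest share of 30.5% in KO male replicate 2. Lamb3 held 18.7% ± 1.47 in the WT males and 29.0% ± 7.10 in the KO males without overlap, and 22.0% ± 7.33 in the WT females and 18.0% ± 3.56 in the KO females with overlap (SD, n = 3 each).

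**Figure D2:**
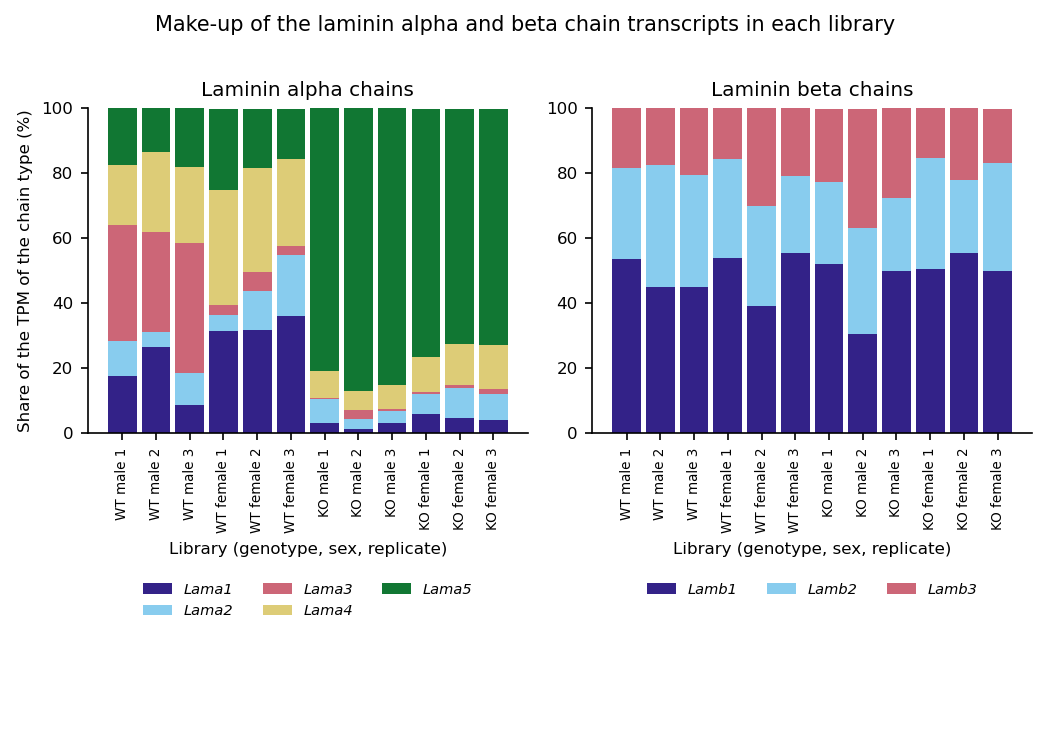
Stacked bars give, for each of the 12 libraries (horizontal axis), the percentage of the summed TPM of the laminin alpha and beta chains (vertical axis) held by each chain. Lama5 (green) fills 72.5% or more of the alpha chains in each KO library, and Lama3 (rose) is wide in the 3 WT males. Lamb3 takes 22.7% to 36.7% of the beta chains in the KO males and 17.5% to 20.3% in the WT males.

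Lama1 fell from 0.811 ± 0.312 to 0.357 ± 0.130 rescaled TPM (SD, n = 6 each), with overlap between the genotypes, by 0.40 on the log2 scale (limma adjusted p = 0.0181). This call is lost on deposited TPM, where the difference was -0.24 (limma adjusted p = 0.108). Lama4 averaged 0.854 ± 0.148 in WT and 0.924 ± 0.218 in KO, a log2 difference of 0.05 (limma adjusted p = 0.712), and passed on deposited TPM at 0.27 (limma adjusted p = 0.0434). Lama2 stayed below the filter, with 209 reads over the 6 WT libraries and 406 over the 6 KO libraries, and missed the threshold in the fit without it (0.25, limma adjusted p = 0.0567). It passed on deposited TPM (0.38, limma adjusted p = 0.00363), and after rescaling without WT male replicate 1, WT female replicate 3 or KO male replicate 2 (adjusted p = 0.0255 to 0.0468). The reads behind a value were worked out from the steps in the deposited values, as stated under the processing.

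Lamc3, a gamma chain of basement membranes in some adult tissues, was the one gene of the 37 with all KO values under all WT values. It was at 0.604, 0.917 and 0.629 rescaled TPM in the WT males and at 0.532, 0.371 and 0.539 in the WT females. In the KO males it was at 0.067, 0 and 0.058, and in the KO females at 0.046, 0.126 and 0.041. These values rest on 22 to 48 reads in each WT library and on 0 to 8 reads in each KO library, so a KO value close to 0 has a wide counting error. The means were 0.599 ± 0.180 in WT and 0.0562 ± 0.0411 in KO (SD, n = 6 each), and the log2 difference was -0.59 ± 0.063 (SE, limma adjusted p = 3.47e-05). It fell in males (-0.72, limma adjusted p = 0.000121) and in females (-0.47, limma adjusted p = 0.00174). An antisense gene shares 6.27% of its exon bases, and reads of the pair cannot be told apart where strand was not used.

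Lama3, the alpha chain of the laminin under hemidesmosomes, followed sex as well as genotype. Its values were 1.34, 1.15 and 1.24 rescaled TPM in the WT males (128, 109 and 146 reads) and 0.0983, 0.150 and 0.0875 in the WT females (10, 16 and 12 reads). In KO they were 0.0554, 0.271 and 0.0886 in the males (6, 31 and 11 reads) and 0.0575, 0.0697 and 0.158 in the females (9, 8 and 21 reads). The 3 WT males stood above the other 9 mice, and the other 3 groups overlapped. In WT, males exceeded females by 1.01 ± 0.072 (SE, limma adjusted p = 2.07e-05). The KO males fell by 0.98 on the log2 scale (limma adjusted p = 9.08e-06), and the KO females differed from the WT females by -0.02 (limma adjusted p = 0.884). The genotype effect differed between the sexes by the interaction term, -0.96 ± 0.10 (SE, limma adjusted p = 0.00109), which at a pseudocount of 0.1 was -2.46 and missed the threshold (limma adjusted p = 0.0544). The effect over both sexes (-0.50, limma adjusted p = 0.0261) averages these, and it missed the threshold without any 1 of the 6 males (adjusted p = 0.05001 to 0.0584). It was the one member called among the 0.537% of all 17332 genes with a sex-dependent genotype effect, and among the 2.67% that differed by sex in WT.

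**Figure D3:**
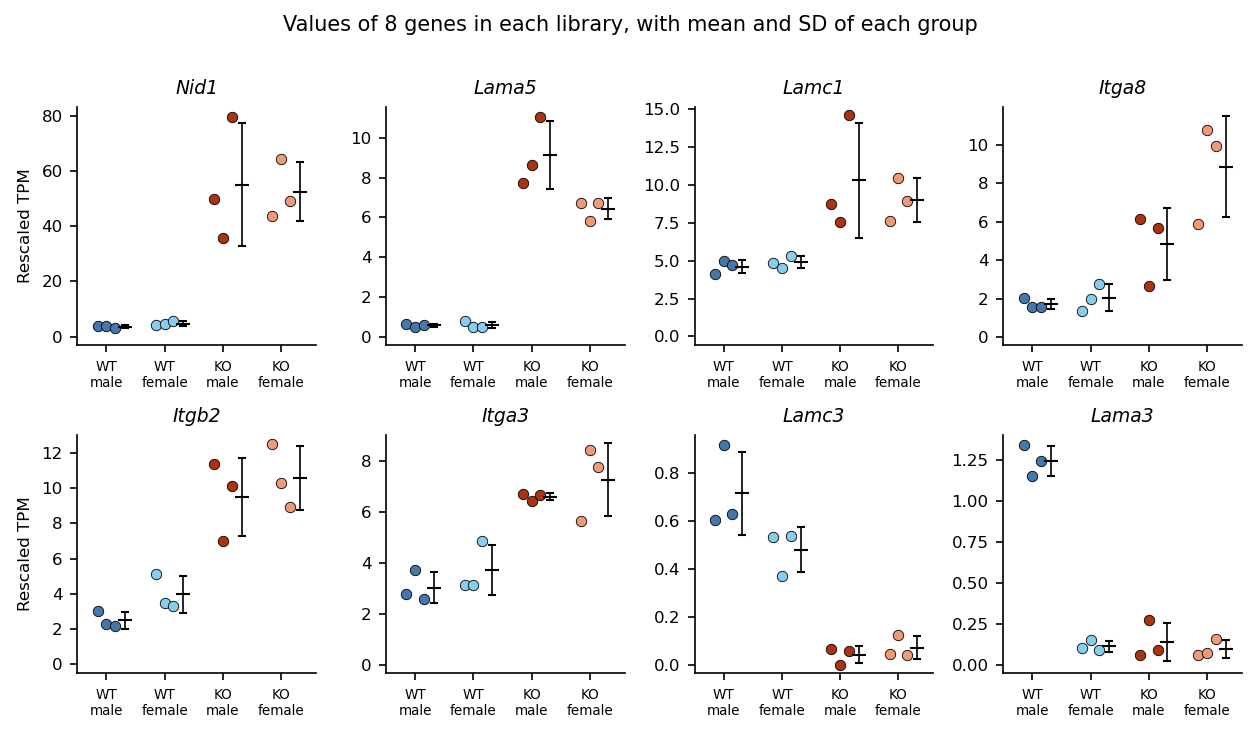
Each panel gives the rescaled TPM (vertical axis, linear from 0) of 1 gene in the 3 libraries of each of the 4 groups (points), with the group mean and SD beside them (n = 3). Nid1, Lama5, Lamc1, Itgb2 and Itga3 show no overlap of KO with WT, Lamc3 is lower in each KO library, and Lama3 is high in the WT males alone.

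An integrin's ligand is set by its pair of alpha and beta subunits. Itgb1, the common partner of most alpha subunits, was the most abundant of the 37 genes. Itgb1 was at 92.0, 120 and 90.3 rescaled TPM in the WT males and at 77.2, 84.9 and 88.4 in the WT females. The KO values of 106, 97.2 and 117 in males and 96.2, 114 and 102 in females lay within the WT range. The difference of 0.20 did not pass the threshold (95% interval -0.02 to 0.42, limma adjusted p = 0.135), and did so without WT male replicate 2, the highest WT library (0.27, limma adjusted p = 0.0294). On deposited TPM it was 0.66 (limma adjusted p = 9.68e-05), so this call rests on the scaling.

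Itgb5, which pairs with the alpha V subunit to bind vitronectin, rose from 42.4 ± 8.46 to 72.6 ± 11.4 rescaled TPM (SD, n = 6 each), by 0.77 ± 0.14 (SE, limma adjusted p = 0.00101). Its WT values ran from 29.8 to 52.1, with a median of 41.3, and its KO values from 53.9 to 84.2, with a median of 75.7, without overlap. Itga5, the alpha subunit of the fibronectin receptor, rose from 11.5 ± 3.67 to 19.5 ± 1.82, by 0.76 ± 0.17 (SE, limma adjusted p = 0.00328). The lowest KO value of 17.1 stood above the highest WT value of 16.2. Within the beta subunits, Itgb1 held 69.04% ± 3.24 of the TPM in the WT males, 61.8% ± 1.62 in the WT females (SD, n = 3 each) and 55.2% ± 2.88 in KO (SD, n = 6). Itgb5 held 27.6% ± 3.09, 32.5% ± 2.54 and 37.7% ± 2.76 in the same groups. With Lamc1, 3 of the 6 broadly made genes rose, all 3 without overlap. On deposited TPM all 6 rose, 5 of them without overlap. Over all genes tested, 20.9% rose after rescaling and 50.1% on deposited TPM. Of the genes above 0, 8.52% had all KO values above all WT values after rescaling.

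The epithelial integrins were split between abundant and scarce genes. Itga3, a laminin receptor of epithelia that binds laminins with the alpha 5 and alpha 3 chains, was at 2.76, 3.72 and 2.59 rescaled TPM in the WT males and at 3.14, 3.14 and 4.86 in the WT females. The KO values were 6.68, 6.42 and 6.67 in the males and 5.63, 8.41 and 7.73 in the females. All were above the WT values, and the 3 KO males differed little from each other. The log2 difference was 0.87 ± 0.13 (SE, limma adjusted p = 0.000133). Itga6, the laminin receptor of hemidesmosomes and ducts, rose from 0.836 ± 0.277 to 1.93 ± 1.10 (SD, n = 6 each) with overlap, by 0.62 ± 0.20 (SE, limma adjusted p = 0.0277). Of its KO values, 4.05 in 1 male was the highest and 0.848 in another the lowest, and without WT male replicate 1 its limma adjusted p was 0.0631. It was 0.0502 to 0.0504 without WT female replicate 2, WT female replicate 3 or KO female replicate 1.

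Itga2, a collagen receptor of epithelia and platelets, was low but higher in each KO library, with 22 reads over the 6 WT libraries and 167 over the 6 KO libraries. Its mean went from 0.0522 ± 0.0392 to 0.341 ± 0.0939 rescaled TPM (SD, n = 6 each). The difference was 0.35 ± 0.045 (SE, limma adjusted p = 0.000151) in the fit without the filter. Itgb4, the beta subunit of hemidesmosomes, had 78 and 50 reads in WT and KO. Itgb6, the epithelial activator of TGF-beta, had 4 and 4 reads, and Itgb8, which also activates TGF-beta, had 96 and 46. None of these 3 passed the threshold (limma adjusted p = 0.118, 0.978 and 0.0828). At this depth a change of Itgb6 was not detectable. In all, 3 of the 5 tested epithelial genes rose (Lama5, Itga3 and Itga6), Lama1 fell and Lamb3 did not pass. With the filter lifted the counts were 4 higher and 2 lower of 11. On deposited TPM 4 of the 5 rose and 0 fell, and with the filter lifted 5 of the 11 rose and 1 fell. Over all genes after rescaling, 20.9% rose and 18.7% fell with the filter, and 16.4% and 12.9% without it. On deposited TPM 50.1% rose with the filter.

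Beside these genes stand the markers of bile duct cells, of which 3 of 6 tested rose, 1 fell, and 9 were listed. For comparison, 20.9% of all genes tested were higher and 18.7% lower, and 50.1% were higher on deposited TPM. Spp1, osteopontin and itself an integrin ligand, rose by 3.31, Tspan8 by 2.32 and Sox9, a duct transcription factor, by 1.17, while Epcam fell by 0.53. Krt19, the keratin of ducts, was at -0.36 (limma adjusted p = 0.268). The summed level of the list was 45.3 to 76.4 rescaled TPM in WT and 245 to 616 in KO, mostly Spp1, and on deposited TPM 4 rose and 1 fell. Of the 7 hepatocyte markers, 0 rose and 4 fell: Cyp2e1 by 2.67, Serpina1c by 2.21, Ttr by 1.57 and Alb by 0.74. Their sum was 110142 to 134071 rescaled TPM in WT and 53668 to 77206 in KO, and on deposited TPM 1 rose and 3 fell, Alb not among them. In whole tissue, fewer cells of a type and less RNA in each cell cannot be told apart, and the part of cell make-up in the changes of the 37 genes was not tested.

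**Figure D4:**
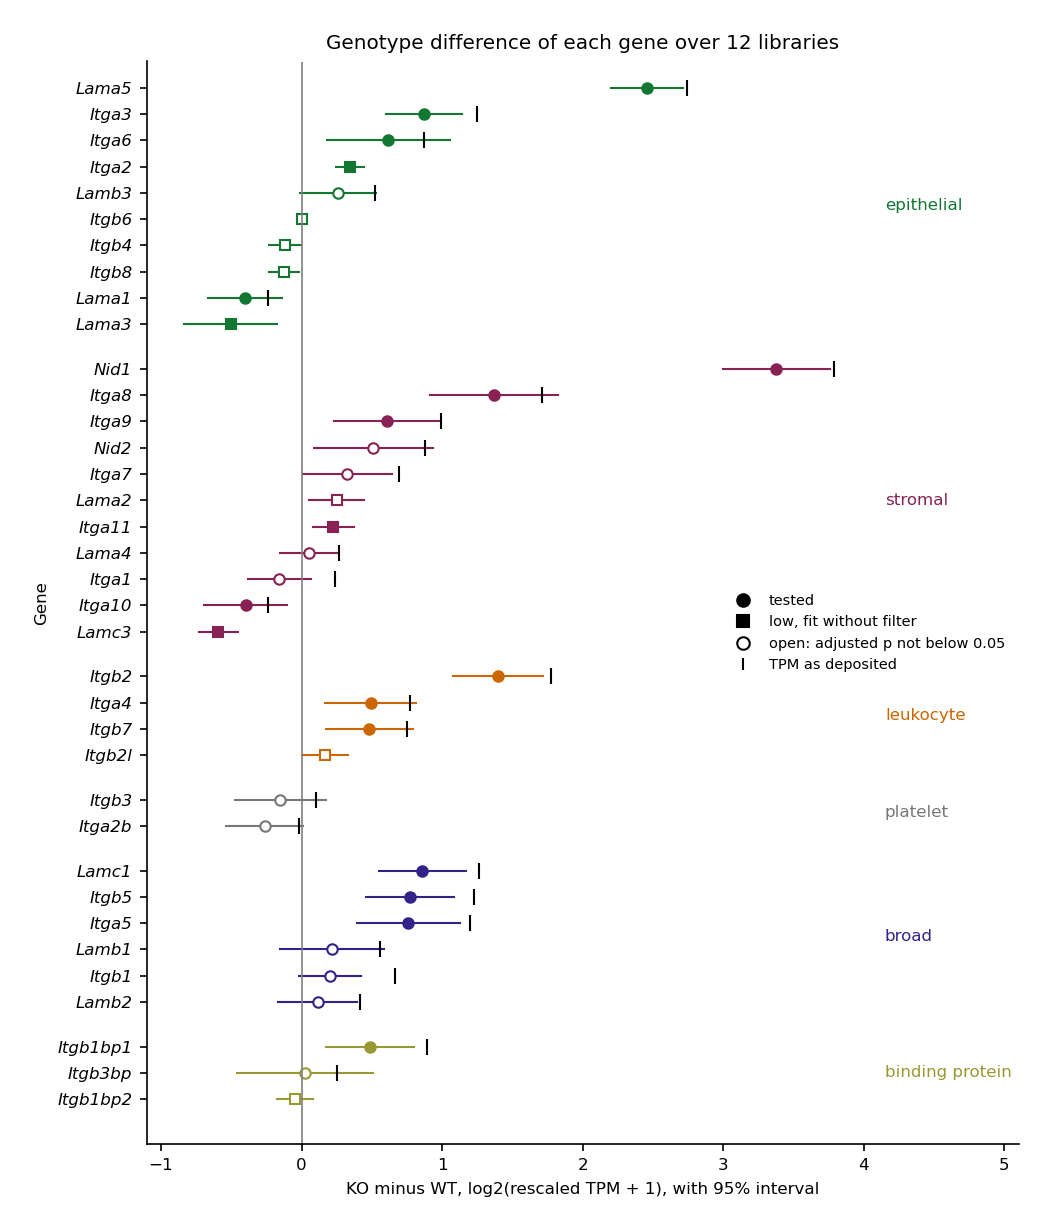
Points give the KO minus WT difference of 36 of the genes on the log2(rescaled TPM + 1) scale (horizontal axis) with its 95% interval, by class (vertical axis). Filled points passed an adjusted p of 0.05, squares are 10 low genes, whose intervals are narrow because the pseudocount compresses low values, and black ticks give the 26 tested genes on deposited TPM, all to the right of the rescaled value.

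Among the stromal integrins, Itga8, the nephronectin and fibronectin receptor of stellate cells and smooth muscle, had the largest rise on the log2(rescaled TPM + 1) scale. Its values were 2.04, 1.56 and 1.56 rescaled TPM in the WT males and 1.36, 1.99 and 2.76 in the WT females. The KO males had 6.14, 2.67 and 5.70 and the KO females 5.86, 10.8 and 9.93. Only 1 KO male fell within the WT range, and the females reached the highest levels. The log2 difference was 1.37 ± 0.21 (SE, limma adjusted p = 0.000215). It was 1.05 among males and 1.69 among females, and the interaction term did not pass the threshold (-0.64, limma adjusted p = 0.808).

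Itga9, a receptor for tenascin and VCAM1, rose from 3.91 ± 0.864 to 6.58 ± 1.70 (SD, n = 6 each), by 0.61 ± 0.17 (SE, limma adjusted p = 0.0138). Itga1, a collagen receptor and in WT livers the most abundant of the genes classed as stromal, was at 5.81 ± 0.872 in WT and 5.08 ± 0.508 in KO (SD, n = 6 each). Its difference of -0.16 (limma adjusted p = 0.251) turned to 0.24 on deposited TPM, where it also missed the threshold. Itga7, the laminin receptor of muscle, was at 3.68 ± 0.826 and 4.86 ± 1.01, a difference of 0.33 (limma adjusted p = 0.0976), and passed on deposited TPM at 0.70, and after rescaling without WT female replicate 1 (0.40) or KO female replicate 2 (0.41). Itga10, a collagen receptor of cartilage, fell from 0.770 ± 0.329 to 0.332 ± 0.173, by 0.40 (limma adjusted p = 0.0326), a call that is lost on deposited TPM (-0.24, limma adjusted p = 0.144) and without KO male replicate 1, KO male replicate 3 or KO female replicate 2 (adjusted p = 0.0583, 0.0749 and 0.0711). Another gene model on the same strand, Gm42957, covers 33.5% of its exon bases, so its value is uncertain. Itga11, the collagen receptor of fibroblasts, had 20 reads in WT and 83 in KO and passed the threshold without the filter (0.22, limma adjusted p = 0.0249), but not without WT female replicate 1 or 2 or KO female replicate 2 or 3 (adjusted p = 0.0514 to 0.0582).

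Of the 8 tested stromal genes 3 rose (Nid1, Itga8 and Itga9) and 1 fell, while Lama4, Itga1, Itga7 and Nid2 did not pass. On deposited TPM 6 of the 8 rose and 0 fell. The shares over all genes tested were 20.9% higher and 18.7% lower after rescaling, and 50.1% higher on deposited TPM. Of 10 markers of stellate cells and fibroblasts, 5 rose and 2 fell. The fibrillar collagens Col1a1 and Col3a1 rose by 3.61 and 2.42, Lum by 2.34 and Pdgfrb, the PDGF receptor of mural cells, by 1.46. Lrat, the retinol esterifying enzyme of quiescent stellate cells, fell by 0.91. The sum of the list ran from 101 to 245 rescaled TPM in WT and from 166 to 387 in KO, and on deposited TPM 7 rose and 0 fell, Lrat not among the called. Of 3 tested smooth muscle markers 0 passed, and Acta2 was at 0.44 (limma adjusted p = 0.343), with sums of 7.07 to 16.3 in WT and 8.14 to 34.4 in KO. On deposited TPM 1 of the 3 rose (Tagln, at 0.97). Of 7 sinusoidal endothelial markers 0 rose and 2 fell, Kdr by 1.02 and Lyve1 by 0.46, with sums of 65.5 to 96.8 in WT and 32.7 to 104 in KO. On deposited TPM 1 of these 7 rose and 1 fell, and Lyve1 did not pass. The mesothelial markers Wt1 and Lrrn4 rose by 1.08 and 0.63, 2 of 4 tested, with sums of 0.682 to 7.996 in WT and 2.58 to 10.8 in KO, and 3 of the 4 rose on deposited TPM. The part of these cell types in the rise of Nid1, Itga8 and Itga9 was not tested.

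All 3 tested leukocyte integrins rose, both after rescaling and on deposited TPM. Of all genes tested, 20.9% and 50.1% rose on these scales. Itgb2, the beta subunit of the leukocyte receptors for ICAM1 and complement, was at 3.06, 2.27 and 2.19 rescaled TPM in the WT males and 5.16, 3.46 and 3.29 in the WT females. The KO males had 11.3, 7.02 and 10.1 and the KO females 12.5, 10.3 and 8.91, all above the WT mice. The log2 difference was 1.40 ± 0.15 (SE, limma adjusted p = 9.30e-06). Itga4, a homing receptor that binds VCAM1, had 1.20, 0.722 and 0.796 in the WT males and 1.98, 2.06 and 1.66 in the WT females. Its KO values were 2.10, 2.31 and 2.90 in the males and 2.71, 2.03 and 1.81 in the females. The WT males were the low group, and the females of both genotypes overlapped. Itga4 rose by 0.49 over both sexes (limma adjusted p = 0.0188) and by 0.85 in males (limma adjusted p = 0.00212), and was at 0.13 in females. The interaction term of 0.72 did not pass (limma adjusted p = 0.375), so the effects were not shown to differ.

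Itgb7, the partner of Itga4 on gut-homing lymphocytes, rose from 1.17 ± 0.409 to 2.03 ± 0.573 (SD, n = 6 each), by 0.48 (limma adjusted p = 0.0162). Itgb2l, a neutrophil relative of Itgb2, had 0 reads in the 3 WT males, 8 reads in the 3 WT females and 37 over the 6 KO mice, and missed the threshold (0.17, limma adjusted p = 0.121). In the authors' deposited table, on a scale without the pseudocount, Itgb2l was past the threshold at 2.89, with an FDR p-value of 0.03. Of the letter-named alpha subunits outside the rule, all 4 tested of 6 rose, beside 20.9% of all genes tested. Itgal, Itgax and Itgam, the leukocyte partners of Itgb2, rose by 1.23, 1.21 and 0.96, and Itgav, the partner of Itgb5, by 0.68.

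Markers of leukocytes moved with these genes. Their counts stand beside 20.9% higher and 18.7% lower over all genes tested, and 50.1% higher on deposited TPM. All 5 pan-leukocyte markers rose, among them Laptm5 by 1.74 and Cd53 by 1.74, Cd52 by 1.60 and Coro1a by 1.15, and their sum was 21.01 to 31.6 rescaled TPM in the WT males, 32.8 to 54.9 in the WT females and 75.3 to 145 in KO. All 7 macrophage markers rose, led by Marco at 3.10, Cd68 at 2.06, Cd5l at 1.87 and Adgre1 at 1.61, with sums of 87.1 to 251 in WT and 299 to 558 in KO. Of 4 tested neutrophil markers and of 5 tested T, B and natural killer cell markers 0 passed. The neutrophil sums were 0.0900 to 27.9 in WT and 7.78 to 37.8 in KO, and on deposited TPM 3 of these 4 rose. The lymphoid sums were 2.998 to 9.30 and 2.22 to 6.55. No gene of any marker list was at 0 in all 12 libraries. The part of leukocyte number in the rise of Itgb2, Itga4 and Itgb7 was not tested.

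The 2 platelet integrin genes, Itga2b and Itgb3, form the fibrinogen receptor of platelets. Itga2b averaged 1.48 ± 0.507 in WT and 1.05 ± 0.345 rescaled TPM in KO, and Itgb3 averaged 1.36 ± 0.456 and 1.11 ± 0.336 (SD, n = 6 each). Neither passed the threshold (-0.26 and -0.15, limma adjusted p = 0.113 and 0.447), and Itgb3 turned to 0.10 on deposited TPM. Of 5 platelet markers 2 were tested, and Pf4, a chemokine of platelet granules, rose by 1.35, with sums of 1.64 to 5.31 in WT and 3.15 to 10.2 in KO. The part of platelets in these values was not tested. Of the 3 binding proteins, Itgb1bp1, an inhibitor of beta 1 integrin activation, rose from 6.67 ± 1.30 to 9.69 ± 1.57 (SD, n = 6 each), by 0.49 (limma adjusted p = 0.0174). Exons of Asap2 and Cpsf3 on the other strand cover 11.4% and 5.54% of the exon bases of Itgb1bp1. Opposite-strand genes also share 2.06% of the exon bases of Nid1, 8.45% of Nid2, 5.05% of Itga8 and 8.04% of Itga4. Itgb3bp, a centromere protein, was at 0.02 (limma adjusted p = 0.945), and Itgb1bp2, a muscle protein, was at or below 0.21 rescaled TPM in each library.

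By sex, the same direction was seen at the genes that moved most. In males 9 of the 26 rose and 0 fell, where 13.9% of all genes tested rose and 10.2% fell. In females 8 rose and 0 fell, where 15.2% rose and 10.9% fell, and 5 rose without WT female replicate 2 or KO female replicate 2. On deposited TPM 17 of the 26 rose in males and 15 in females, where 43.3% and 29.1% of all genes tested rose. With rescaling that leaves out the 20 most abundant genes, 16 rose in males and 14 in females, where 36% and 25.1% of all genes tested rose. Nid1, Lama5, Lamc1, Itgb2, Itga3, Itga5, Itgb5 and Itga8 were called in both sexes, and Itga4 in males only by threshold. In the fit without the filter Itga5 missed the threshold in both (limma adjusted p = 0.0748 in males and 0.0623 in females). At an unadjusted p of 0.05, 14 rose and 1 fell in males, and 13 rose and 1 fell in females, where 36% and 38% of all genes tested passed in either direction. None of the 26 passed the interaction term, which 0.839% of all genes did, and 1 of them (Itga4) was under an unadjusted p of 0.05, as were 7.58% of all genes. Between the sexes, 0 of the 26 differed in WT (4.37% of all genes) and 0 in KO (0.0814% of all genes). At an unadjusted p of 0.05 the counts were 5 in WT and 2 in KO, beside 23.9% and 5.59% of all genes.

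**Figure D5:**
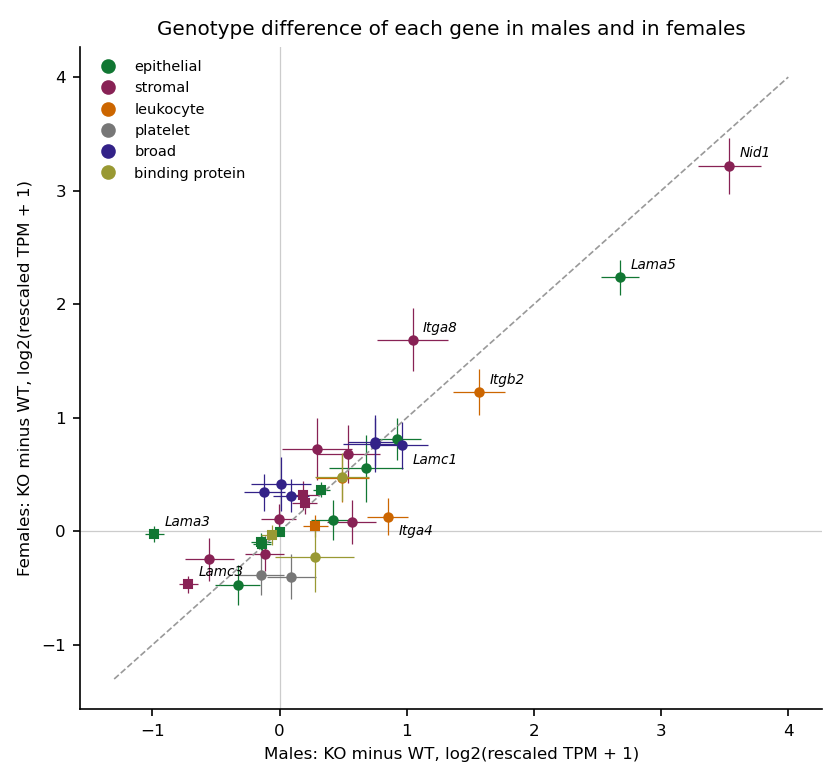
Each point is 1 of 36 genes, with its KO minus WT difference in males (horizontal axis) and in females (vertical axis) on the log2(rescaled TPM + 1) scale and the SE as bars (squares are the low genes). Nid1 (3.54 and 3.22) and Lama5 (2.68 and 2.24) lie far out near the dashed line of equal effects, Itga8 lies above it, and Lama3 (-0.98 and -0.02) is off to the left.

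The partners of these genes in the matrix were examined as further lists. Of 11 tested basement membrane partners (14 listed), 7 rose and 0 fell, with a median difference of 0.85. For this and the next lists, the shares over all genes tested were 20.9% higher and 18.7% lower. On deposited TPM 50.1% of all genes tested were higher. Col4a1 and Col4a2, the common type IV collagen chains, rose by 1.94 and 1.24, Sparc by 1.14 and Col15a1 by 1.04, while Hspg2, the perlecan gene, was at 0.28 (limma adjusted p = 0.244) and passed on deposited TPM at 0.64 (limma adjusted p = 0.00909). On that scale 10 of the 11 rose and 0 fell. Of 11 tested soluble and matrix ligands (12 listed), 6 rose and 0 fell, led by Spp1 at 3.31, Thbs1 at 1.90, Tnc at 1.09 and Tgfb1 at 0.89. Fn1, the fibronectin gene, was at -0.09 (limma adjusted p = 0.634) and at 0.37 on deposited TPM (limma adjusted p = 0.0539), where 10 of the 11 ligands rose and 0 fell. Of 7 tested cell surface ligands (8 listed), 5 rose and 0 fell, led by Icam1 at 1.73, Vcam1 at 1.40, Cdh1 at 1.40 and F11r at 0.80, with the same counts on deposited TPM. Icam1 is a ligand of Itgb2 and Vcam1 of Itga4.

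Inside the cell, 7 of 18 integrin adaptors and signal proteins rose and 4 fell, with a median difference of 0.19. The 4 lower calls stand beside 18.7% lower over all genes tested, and the 7 higher ones beside 20.9%. The kinase gene Src rose by 1.78, Parvg and Fermt3, the parvin and kindlin of blood cells, by 1.32 and 1.28, and Fermt1, the kindlin of epithelia, by 0.89. On deposited TPM 13 of the 18 rose, beside 50.1% of all genes tested, and 0 fell, so the 4 lower calls rest on the scaling. The Src mean went from 1.43 ± 0.234 to 7.64 ± 2.40 rescaled TPM (SD, n = 6 each).

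The authors' deposited table gives its own log2 fold change and FDR p-value for each gene. In it, 16 of the 37 genes were higher and 4 lower with a p under 0.05, beside 2591 higher and 1607 lower of 17332 genes. In the authors' deposited table Nid1 stood at 3.69, Lama5 at 3.72, Lamc3 at -3.61 and Lama3 at -3.07 on a scale without this pseudocount. All 15 genes called here after the filter were past the threshold in the authors' deposited table, 13 higher and 2 lower, each with the same sign. Itgb1 was at 0.10 in the authors' deposited table, with an FDR p-value of 0.77.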

How the data were processed

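The deposited table held TPM, 1 column for each of the 12 livers, per the file headers. Per the submitters' processing notes, build GRCm38 and edgeR were used. The aligner, the annotation and the use of strand are not given in the sources used here. The authors' deposited table also held log2 fold changes and FDR p-values rounded to 2 decimals, and these served only as a comparison. Each of the sample columns matched a label, and 0 were left over. Replicates were numbered within a group in order of deposition and pair nothing.

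TPM were divided by median-of-ratios size factors, a pseudocount of 1 was added, and log2 values of 12278 genes with a mean deposited TPM of at least 0.5 entered linear models (limma 3.58.1 under R 4.3.3, with an intensity trend). The genotype fit had sex as a covariate, and the other comparisons came from 1 model of 4 group means. P-values are two-sided, with a threshold of 0.05. The script was tested on simulated data. A TPM is a share of a library, so changes in a few abundant liver genes move all other values, which rescaling is meant to offset.

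Reads behind a value are the smallest whole numbers that fit the steps of the deposited TPM within 0.02 reads. They were found for 15075 of 15163 genes (99.4%) above 0 in 6 or more libraries and for 36 of the 37 genes, all but Itgb1bp2. They give relative depth and counting error only.

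Positions come from GENCODE mouse release 21 (25635 of 25676 identifiers matched, all 37 genes), and promoter windows from RefSeq. The members, their cell classes and all lists were chosen with earlier results of these data known. Classes are assignments by gene, and which cells of the liver made a transcript was not measured. Members that passed the genotype or interaction threshold with a log2 difference of at least 1, and the 3 most abundant of each class, are given with values, and at most 4 called genes of each list are named by size. Genes given beyond this rule were chosen after their values were seen. Alternatives were other scalings, pseudocounts, filters, no trend, a term for the early animal numbers and leaving out each library. Protein sequences were not used here. The values of 1 member are not reported here.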

Additional observations from a re-analysis of the deposited data

Results flagged for a closer look

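The effect of genotype on Lama3 differed between the sexes: the difference in males minus that in females was -0.961 on the log2(rescaled TPM + 1) scale (limma adjusted p = 0.00109, fit without the filter on low values). The 3 WT males had 1.15 to 1.34 rescaled TPM and each of the other 9 libraries 0.271 or less. Leaving out each library in turn kept this difference between -1.04 and -0.906, with an adjusted p of at most 0.00555. At a pseudocount of 0.1 it missed the threshold.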

How the results depend on the processing

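No paired analysis was possible because replicate numbers only name the samples. Of the 15 genes called for genotype, 12 kept their direction and their side of the threshold in all 21 alternatives, and Itga6, Itga10 and Lama1 did not. On deposited TPM 20 members rose and 0 fell over both sexes, 17 rose in males and 15 in females, where 50.1%, 43.3% and 29.1% of all genes tested rose. Rescaling without the 20 most abundant genes gave 0 lower over both sexes, 16 higher in males and 14 in females (36% and 25.1% of all genes tested). With no filter the lower calls were 4 over both sexes, 3 in males and 2 in females, and 1 member passed the interaction (Lama3). In that fit 12.9% of all genes fell over both sexes and 0.537% passed the interaction. A mean TPM of at least 1 gave 0 lower because it removes Itga10 and Lama1, so neither was tested there. Itga10 was tested in 17 of the 21 alternatives and Lama1 in 20. Without the intensity trend 1 member fell in males. For the other lower counts of these alternatives, and for the fits without a library, no share over all genes is given here. Those counts cannot be judged against one. For sex in WT, 1 member was called under rescaling without the 20 most abundant genes, pseudocounts of 0.1 and 0.5 and no trend (Itga4 in each), and 1 with no filter (Lama3). Leaving out each library in turn gave 12 to 15 higher and 1 to 2 lower over both sexes, 6 to 10 higher and 0 to 1 lower in males, 5 to 10 higher and 0 to 1 lower in females, 0 to 1 for sex in WT and 0 to 0 for the interaction and for sex in KO. Itga1 turned from -0.16 to 0.24 on deposited TPM and to 0.17 without the 20 most abundant genes, and Itgb3 from -0.15 to 0.10 and 0.056. Itgb3bp ranged from -0.11 to 0.15 as libraries were left out. Lama3 in females was at 0.0090 on deposited TPM without the filter and from -0.063 to 0.0020 as libraries were left out. The term for early animal numbers, which mark WT female replicate 3 and KO female replicate 1, changed no call among the 26 genes. Fits of the low genes with a pseudocount of 0.1, on deposited TPM or without a library were chosen after seeing the data. The cause of these shifts was not tested beyond their construction. Depth limits Itgb6, Itgb2l, Itgb1bp2 and the KO values of Lamc3.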
